A study of Mus musculus with 3 samples.

Results

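The interferon-stimulated genes of skeletal muscle endothelium were examined here as 35 genes picked by symbol out of 41605 gene rows, of which 24 are usually counted as type I interferon responders (type I-like) and 11 as interferon gamma responders (gamma-like). All 35 symbols were present once in the gene list. The levels came from single-cell RNA-seq of endothelial cells sorted as CD31+ CD45- SYTOX blue- from the gastrocnemius of C57BL/6N mice, in 3 droplet libraries. The first library carried the treatment label "no treatment" and is called untreated here and its housing is not given. In the second the mice lived alone and had no wheel (sedentary), and in the third they lived alone and gave their cells after 14 days of voluntary wheel running (running). Each group is 1 library, and the number and age of the animals behind a library are not given in the sources used here. A library's sequencing batch is not given either, so batch and group cannot be told apart.

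Interferons are secreted when cells sense viral or other foreign nucleic acids, or by activated lymphocytes in the case of interferon gamma. Type I interferons bind the receptor chains Ifnar1 and Ifnar2, and the signal leads to the interferon-stimulated response element (ISRE) in the promoters of target genes, with Stat2 and Irf9 among the factors that act there. Interferon gamma binds Ifngr1 and Ifngr2, and its signal leads to the gamma-activated site (GAS). Many target genes answer to both, so the type I-like and gamma-like labels are a convention rather than a clean division. Endothelial cells line every vessel and carry both receptors, and they display antiviral proteins, antigen-processing proteins and chemokines on the path between blood and tissue.

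The promoter stretches that hold these elements are shown because the elements recur among members that the results below place in different vessels. Not every member has a match, and the stretches are a choice among members that do. The window searched ran from 250 bases before to 50 bases after each gene's RefSeq start (GRCm38.p6), and 28 of the 35 members had an entry. Without one were Ifi27, Usp18, Ly6e, Rtp4, Oas2, Iigp1 and Parp14. The ISRE was searched as GAAANNGAAA and the GAS as TTCNNNGAA, on both strands, and overlapping matches were counted. In the stretches below, written 5′ to 3′ on the gene's strand, capitals mark every base of an ISRE or GAS match and the lower case gives the bases around and between matches. An ISRE on the opposite strand reads TTTCNNTTTC.
Isg15, chr4:156200865-156200906, minus strand, overlapping ISRE matches: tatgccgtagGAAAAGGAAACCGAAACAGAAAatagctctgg
Ifit3, chr19:34583363-34583426, plus strand, a pair of separate ISRE matches: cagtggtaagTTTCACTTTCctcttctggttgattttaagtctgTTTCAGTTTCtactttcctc
Rsad2, chr12:26456553-26456582, minus strand, ISRE: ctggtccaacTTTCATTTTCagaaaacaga
Bst2, chr8:71537577-71537618, minus strand, GAS running into ISRE matches: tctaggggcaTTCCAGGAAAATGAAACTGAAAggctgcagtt
Gbp3, chr3:142559989-142560024, plus strand, overlapping ISRE matches: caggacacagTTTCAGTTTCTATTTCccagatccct
Irgm1, chr11:48871425-48871460, minus strand, overlapping ISRE matches: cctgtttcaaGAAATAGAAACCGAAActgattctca
Irf1, chr11:53769914-53769942, plus strand, GAS: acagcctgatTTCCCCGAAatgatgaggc
Psmb8, chr17:34198088-34198116, plus strand, GAS: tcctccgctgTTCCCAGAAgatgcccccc
Cxcl10, chr5:92349083-92349112, minus strand, ISRE: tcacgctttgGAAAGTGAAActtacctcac

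A gene was counted if any of its listed promoters held a match. The ISRE letters were present for 16 of the 28 members with an entry (57.1%), against 3.99% of all 27025 genes with one. They were found for 10 of 18 type I-like members (55.6%) and 6 of 10 gamma-like members (60.0%), so the element did not separate the conventional lists. The GAS letters were present for 8 of the 28 (28.6%), against 9.55% of all genes, with 22.2% of the type I-like and 40.0% of the gamma-like members. A match is a description of these letters and not a measured binding site. The Psmb8 and Irgm1 starts in RefSeq lie inside the span of the GENCODE gene, and so do the Psmb8 and Irgm1 stretches. The Bst2 start in RefSeq also lies away from the GENCODE start.

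The libraries held 4376, 4079 and 3260 cell barcodes (untreated, sedentary and running, the order of all triplets of values that follow), with 8002866, 5625068 and 5983685 unique molecular identifiers (UMIs, 1 per captured transcript) and medians of 1582, 1122 and 1518 UMIs per cell. A filter on detected genes and mitochondrial share kept 11554 of 11715 barcodes, and any pair of libraries shared 20 to 32 barcodes. Clusters were built without the members and the pathway genes, and were named only from marker genes. Capillary-like cells numbered 2137, 2639 and 2129, artery-like cells 1516, 1046 and 715, vein-like cells 522, 202 and 210, and lymphatic-like cells 27, 10 and 43. The summed capillary markers stood at 8580 to 9940 CPM (UMIs scaled to the same total in every class sum) in capillary-like cells and at 6683 to 7415 CPM in artery-like cells, so this pair of classes shares much of the capillary program. Summed artery markers were at 3453 to 3701 CPM in artery-like and 534.9 to 816.9 CPM in capillary-like cells, and summed vein markers at 4721 to 5163 CPM in vein-like and 983.7 to 1246 CPM in capillary-like cells. The summed lymphatic markers reached 25860 to 35720 CPM in lymphatic-like cells and at most 169.2 CPM elsewhere. Ptprc, which encodes CD45, was at 0 in 11 of the 12 class sums, and summed leukocyte markers lay between 0 and 123.1 CPM. Erythrocyte markers stood at 78.81, 982.5 and 659.7 CPM in capillary-like cells. Their source and their part in the differences between libraries were not tested. One artery-like cluster, of 463, 759 and 434 cells, was led by Rbp7, Igfbp3, Btnl9, Ly6a, Ly6c1, Fbln5, Bst2 and Stmn2. Bst2 is a member and Ly6a is known to answer to interferon, so artery results are also given without that cluster.

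Summed over the 24 members, type I-like UMIs made up 9538 to 11890 CPM in artery-like cells, 7313 to 9218 in capillary-like cells, 6467 to 9618 in vein-like cells and 4530 to 6950 in lymphatic-like cells. Most of these UMIs belong to Ifitm3, Ly6e, Ifitm2, Bst2 and Trim25. Without those 5, a choice made after values were seen, the other 19 type I-like members summed to 2608 to 2772 CPM in artery-like, 1804 to 2109 in capillary-like, 983.9 to 1383 in vein-like and 755.1 to 1158 in lymphatic-like cells. The artery, capillary and vein ranges did not overlap, and the vein and lymphatic ranges did. The 11 gamma-like members summed to 1685 to 2289, 1232 to 1880, 1146 to 2089 and 337.9 to 377 CPM in the same order of classes, and here the artery, capillary and vein ranges overlapped. The plot of levels by class shows 8 of the members in every library.

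**Figure D1:**
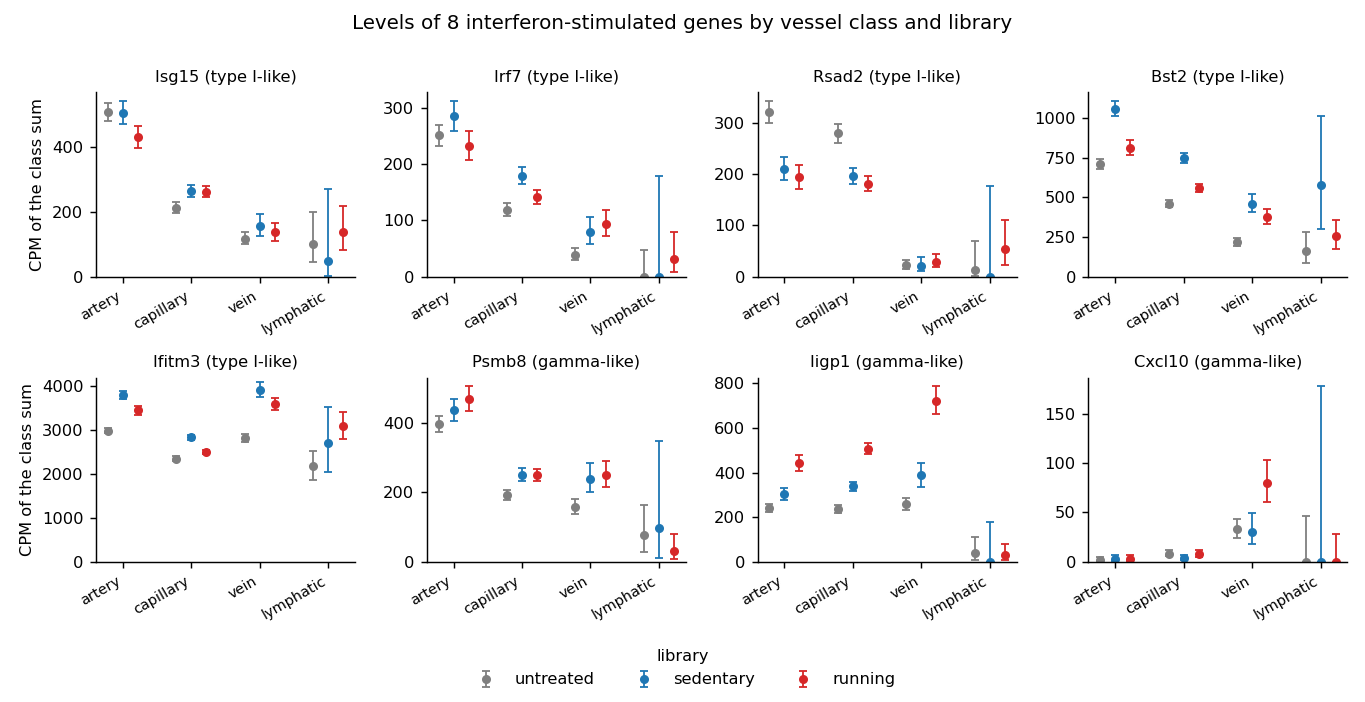
Levels of 8 members in the 4 vessel classes, in CPM of the class sum on axes that start at 0, with 1 point per library and exact 95% Poisson intervals (counting error only). The type I-like members Isg15, Irf7 and Rsad2 are lowest among blood vessels in vein-like cells, whereas the gamma-like member Cxcl10 is highest there, at 32.7, 30.6 and 79.9 CPM.

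Artery-like cells had higher levels of most members than capillary-like cells. Of the 35 members, 24 were higher (18 type I-like and 6 gamma-like) and 2 were lower, Trim25 and Cxcl10. Over all 12160 genes tested, 9.85% were higher and 8.61% lower. The median log2 ratio was 0.45 for type I-like and 0.43 for gamma-like members, beside -0.02 for all genes. The test was edgeR's quasi-likelihood test on UMIs summed per class and library with the library as a block, and p-values were adjusted by Benjamini-Hochberg over all genes. The 3 libraries are of different treatments, so the p-values measure how steady a class difference was across these libraries. Differences are given below as log2 ratios ± SE.

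Isg15, a ubiquitin-like protein attached to other proteins during the antiviral response, stood at 506.5, 504.8 and 429.5 CPM in artery-like cells, 212.2, 263.5 and 262.1 in capillary-like cells, 116.9, 156.6 and 135.9 in vein-like cells and 100.7, 48.27 and 138.5 in lymphatic-like cells. The artery, capillary and vein ranges did not overlap. The artery level was 2.02-fold the capillary level (log2 1.01 ± 0.10, adjusted p = 1.51e-10), and the vein level was below the capillary one (log2 -0.70 ± 0.12, adjusted p = 9.9e-06). Irf7, the transcription factor that amplifies type I interferon production, had 251.1, 285 and 232.7 CPM in artery-like, 118.7, 179.3 and 141.4 in capillary-like, 38.96, 79.2 and 93.89 in vein-like and 0, 0 and 30.77 in lymphatic-like cells. Its order of classes was that of Isg15 with no overlap among the blood vessel classes. Artery stood above capillary (log2 0.87 ± 0.12, adjusted p = 2.94e-07) and vein below it (log2 -0.97 ± 0.16, adjusted p = 1.05e-05). Both genes were called lower in vein than in capillary under all 15 alternative settings.

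Rsad2 encodes viperin, an enzyme that makes a chain-terminating nucleotide. Its levels were 321.6, 211.3 and 194.6 CPM in artery-like cells, 280.2, 197.1 and 181.4 in capillary-like cells, 22.27, 21.6 and 29.43 in vein-like cells and 12.58, 0 and 53.85 in lymphatic-like cells. Artery and capillary overlapped across libraries and gave no call (log2 0.18 ± 0.10, adjusted p = 0.246), while vein was 8.6-fold below capillary (log2 -3.10 ± 0.17, adjusted p = 3.82e-17). Of all members Rsad2 was the one lowest in vein relative to either other class, and the gap to artery was of similar size (log2 -3.28 ± 0.17, adjusted p = 9.82e-18). Both calls held under all alternative settings, but their size varied. The log2 ratio ran from -3.355 to -1.898 against capillary and from -3.542 to -1.818 against artery. Ifit2, an RNA-binding antiviral protein named after its values were seen, was likewise low in vein, at lower counts. It had 45.69, 38.97 and 43.02 CPM in artery-like, 25.17, 33.06 and 28.99 in capillary-like and 4.871, 7.2 and 8.408 in vein-like cells. Unlike Rsad2, it was also called higher in artery than in capillary (log2 0.61), a call that held in 12 of 16 alternative settings. Ifit2 was lower in vein than in capillary (log2 -2.01), a call held under all 15 alternative settings.

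Bst2 encodes tetherin, which holds budding virus particles on the cell surface. Its levels were 712.3, 1060 and 812.4 CPM in artery-like, 459.1, 748.6 and 556 in capillary-like, 215, 459 and 375.6 in vein-like and 163.6, 579.2 and 253.9 in lymphatic-like cells. Within each library the order was artery, capillary, vein, although the ranges over libraries overlapped. Artery exceeded capillary (log2 0.60 ± 0.09, adjusted p = 2.46e-06) and vein was lower (log2 -0.62, adjusted p = 5.07e-06). Without the artery-like cluster that Bst2 itself helps to lead, the artery difference was log2 0.25 with adjusted p = 0.157. Xaf1, which counters an inhibitor of apoptosis, had 263.3, 193.6 and 189.7 CPM in artery-like, 190.9, 159.6 and 134.8 in capillary-like, 82.1, 81 and 82.68 in vein-like and 113.3, 0 and 100 in lymphatic-like cells. The vein values lay within 2 CPM of each other and below every capillary value. Xaf1 was called higher in artery (log2 0.45 ± 0.10, adjusted p = 0.000702; 0.26 without that cluster, adjusted p = 0.149) and lower in vein (log2 -0.85, adjusted p = 2.15e-06).

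Ifitm3 followed another order. This protein, which blocks fusion of viral with cell membranes, stood at 2979, 3792 and 3442 CPM in artery-like, 2344, 2830 and 2495 in capillary-like, 2814, 3908 and 3579 in vein-like and 2165, 2703 and 3085 in lymphatic-like cells. Capillary was the lowest blood vessel class in each library, and both artery (log2 0.45 ± 0.07, adjusted p = 5.47e-06) and vein (log2 0.58 ± 0.07, adjusted p = 2.17e-08) exceeded it. Ifitm2, of the same family, had 1116, 1810 and 1718 CPM in artery-like, 900.8, 1450 and 1337 in capillary-like, 789, 1870 and 1400 in vein-like and 868.3, 1593 and 1169 in lymphatic-like cells. The Ifitm2 ranges overlapped in all classes, with the untreated library lowest in each. Ifitm2 was called higher in artery (log2 0.37 ± 0.08, adjusted p = 0.00128) and in vein (log2 0.25, adjusted p = 0.0322), but the artery call held in 8 of 16 alternative settings and the vein call in 5 of 15. Its artery difference was log2 0.07 (adjusted p = 0.743) without the artery-like cluster led in part by Bst2 and 0.35 (adjusted p = 0.071) without the running library. Its vein difference was 0.11 (adjusted p = 0.592) without the sedentary and 0.27 (adjusted p = 0.189) without the running library. Ifitm2 and Ifitm3 are related genes, and how the authors' counting treated shared reads is not given. Their values are thus uncertain with respect to each other.

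Ly6e, a lipid-anchored surface protein, had 1542, 2364 and 2176 CPM in artery-like, 1259, 1964 and 1692 in capillary-like, 1213, 1915 and 1498 in vein-like and 465.6, 917.1 and 807.8 in lymphatic-like cells. The blood vessel ranges overlapped, and all lymphatic values lay below all others. Artery exceeded capillary (log2 0.35 ± 0.07, adjusted p = 0.000432), a call that held in 9 of 16 alternative settings and was lost without the cluster led in part by Bst2 (log2 0.11, adjusted p = 0.528) and without the running library (log2 0.31, adjusted p = 0.0525). Ifi27, a protein of the mitochondrial and nuclear membranes, had 173.8, 209.5 and 248.9 CPM in artery-like, 148.3, 158.3 and 197.3 in capillary-like, 133.6, 196.2 and 200.4 in vein-like and 188.8, 337.9 and 269.3 in lymphatic-like cells. It was the one member of the 10 described in full whose lymphatic value was the highest of the 4 classes in each library, a difference from capillary that gave no call (log2 0.39 ± 0.23, adjusted p = 0.316). Ifi27 was called higher in artery than in capillary (log2 0.36 ± 0.10, adjusted p = 0.00674), but in 5 of 16 alternative settings, and at log2 0.13 (adjusted p = 0.542) without the cluster led in part by Bst2 it was not called. Nor was it without the sedentary (log2 0.30, adjusted p = 0.112) or the running library (log2 0.35, adjusted p = 0.108). Trim25, a ubiquitin ligase that acts on the RNA sensor encoded by Ddx58, differed widely between libraries among the blood vessel classes. Its levels were 445, 91.95 and 83.92 CPM in artery-like, 545.7, 116 and 107 in capillary-like, 451.6, 102.6 and 99.5 in vein-like and 113.3, 0 and 15.39 in lymphatic-like cells. Every untreated blood vessel value was above every sedentary and running value, and artery was slightly below capillary (log2 -0.28 ± 0.10, adjusted p = 0.0351), a call lost when any 1 library was left out (adjusted p = 0.0777 to 0.192). Trim25 was also lower in lymphatic-like than in capillary-like cells (log2 -2.62 ± 0.36, adjusted p = 2.03e-11), on 11 UMIs where the capillary level would have given 59.7.

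The remaining 14 type I-like members lay between 26.19 and 214.4 CPM in artery-like cells and between 8.091 and 179.3 CPM in capillary-like cells. Of these, 10 were higher in artery, with log2 ratios from 0.28 to 1.04, and Irf9, Stat2, Ddx58 and Parp14 gave no call. Ifit3, Rtp4 and Oas2, named after their values were seen, had the highest ratios among these 14. Ifit3, an RNA-binding protein, was at 99.29, 134.6 and 119.9 CPM in artery-like and 44.05, 82.96 and 53.5 CPM in capillary-like cells (log2 1.04 ± 0.12, adjusted p = 1.41e-08). Each artery value exceeded each capillary value. Rtp4, a chaperone of membrane receptors, was at 159, 170.5 and 173.5 against 75.52, 98.22 and 92.06 CPM, again without overlap (log2 0.97 ± 0.10, adjusted p = 2.47e-09). Oas2, which makes the oligoadenylates that activate an RNA-cutting enzyme, was at 28.78, 26.19 and 26.8 against 8.091, 24.47 and 11.66 CPM (log2 1.01 ± 0.22, adjusted p = 0.000754; without the untreated library 0.61, adjusted p = 0.0665). Ifit3 has a near-identical neighbour, Ifit3b, so its value is uncertain in the same way as those of the Ifitm genes.

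The calls for artery against capillary differed in how firmly they held. Ifit3, Isg15, Rtp4, Psmb8 and Psmb10 were called under all 16 alternative settings. Without the block 6 members were called, and 15 were called when every cell was thinned to 1000 UMIs. The share of all genes called under an alternative setting is not given, here or below. Such counts therefore do not tell whether a loss of calls is particular to the members. Without the artery-like cluster led in part by Bst2, 19 members were called and the medians were 0.27 for type I-like and 0.41 for gamma-like members. Bst2, Ifitm2, Ly6e, Xaf1, Ifi27, Ifi35, Trim25 and Cxcl10 lost their calls there. The plot of class ratios sets all members side by side.

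**Figure D2:**
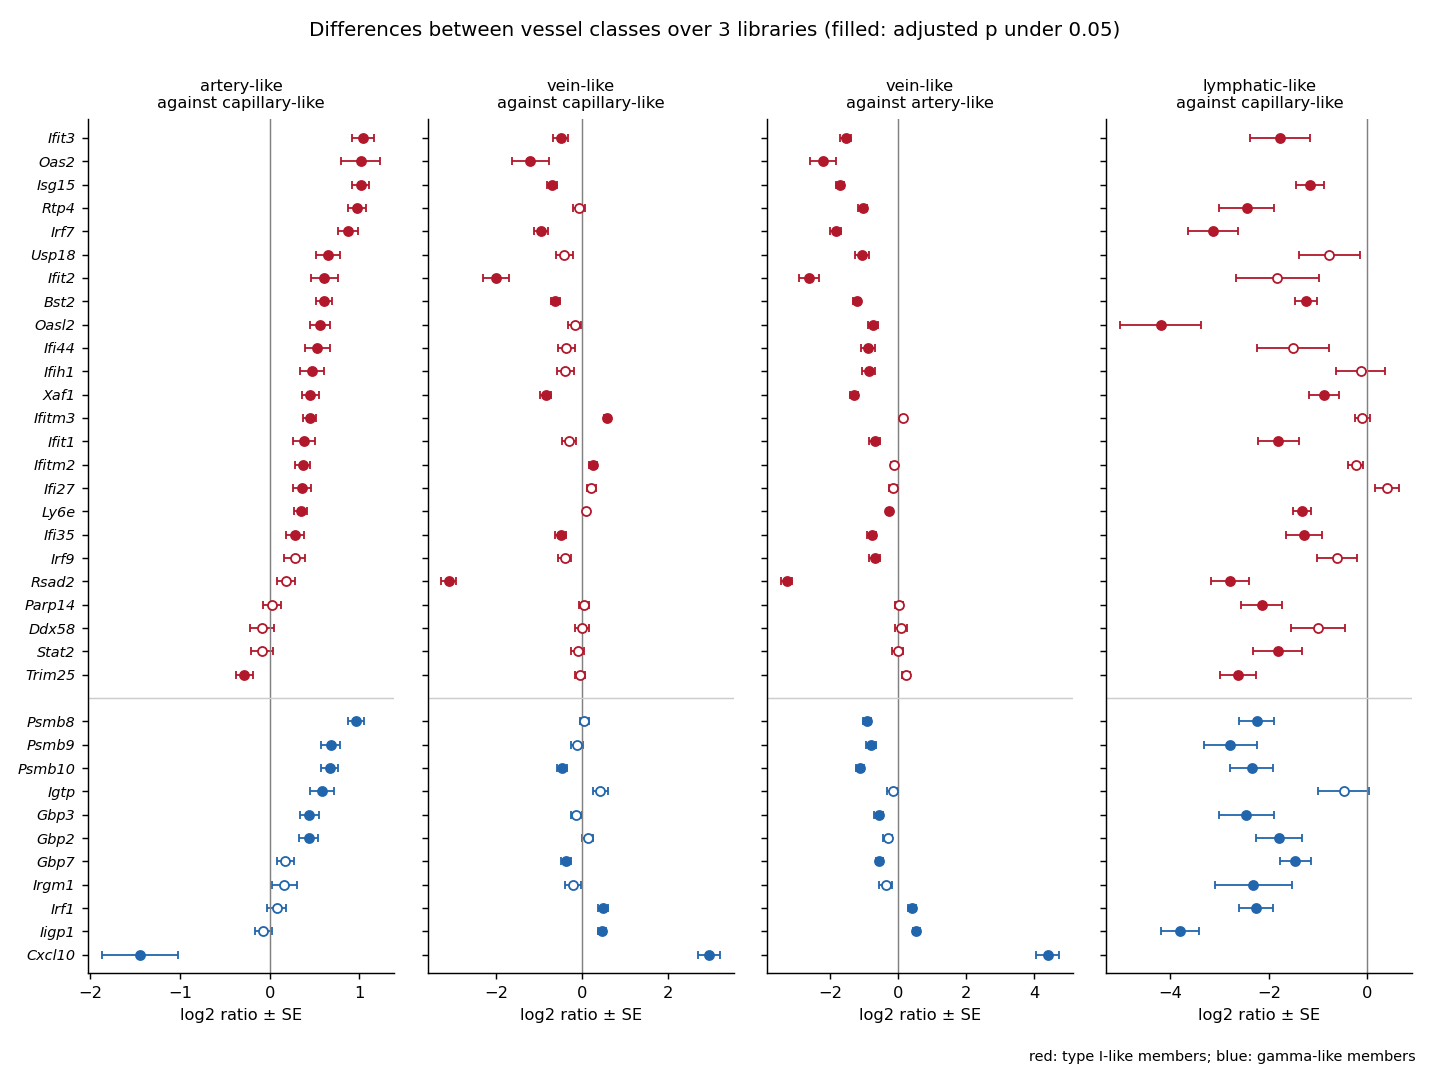
Log2 ratio ± SE of each member in the 4 class comparisons, from the fits across all genes, with type I-like members in red, gamma-like in blue and filled points at an adjusted p under 0.05 (Oas2 and Cxcl10, at 0 in lymphatic-like cells, are left out of that panel). Most members lie above 0 for artery against capillary, while for vein against capillary the type I-like members reach down to -3.10 (Rsad2) and Cxcl10 stands at 2.94.

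Vein-like cells divided the list. Against capillary-like cells, 5 members were higher (Ifitm2, Ifitm3, Irf1, Iigp1 and Cxcl10) and 11 were lower, while 11.1% of all genes were higher and 9.02% lower. The lower members were 9 type I-like genes (Rsad2, Ifit2, Oas2, Irf7, Xaf1, Isg15, Bst2, Ifit3 and Ifi35) and the gamma-like genes Psmb10 and Gbp7. The median log2 ratio was -0.38 for type I-like and 0.05 for gamma-like members, beside -0.02 for all genes. Over the alternative settings the gamma-like median ran from -0.20 to 0.16, so it has no firm sign. Against artery-like cells, 3 members were higher (Cxcl10, Iigp1 and Irf1) and 22 were lower, 17 of them type I-like, with 12.6% of all genes higher and 11.5% lower. Of the 22, 16 were lower under all 16 alternative settings. With all libraries and clusters, none of the type I-like members was called higher in vein than in artery by edgeR or by DESeq2, and 1 was at an unadjusted p under 0.05. In edgeR 1 was called higher without the untreated library and 1 without the artery-like cluster led in part by Bst2. Without the block, 7 members were called between vein and capillary and 20 between vein and artery.

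Among the gamma-like members, Cxcl10, the chemokine that draws in T cells carrying Cxcr3, had the widest class difference. It was at 1.799, 2.436 and 2.821 CPM in artery-like, 8.091, 3.814 and 7.772 in capillary-like and 32.7, 30.6 and 79.88 in vein-like cells, with 0 UMIs in lymphatic-like cells. The 3 blood vessel classes did not overlap, but the counts were low, with 5, 4 and 4 UMIs in artery-like, 27, 12 and 26 in capillary-like and 47, 17 and 57 in vein-like cells. Vein was 7.69-fold above capillary (log2 2.94 ± 0.26, adjusted p = 1.19e-11) and 20.9-fold above artery (log2 4.39 ± 0.34, adjusted p = 7.23e-13), and artery was below capillary (log2 -1.44 ± 0.42, adjusted p = 0.013), a call lost without the untreated library (log2 -1.03, adjusted p = 0.177) or without the artery-like cluster led in part by Bst2 (log2 -1.40, adjusted p = 0.058). Its relative Cxcl9, a pathway gene outside the list, was at 63.23, 66.75 and 68.15 CPM in capillary-like, 29.92, 28.8 and 74.27 in vein-like and 5.396, 14.61 and 13.4 in artery-like cells. Cxcl9 was likewise lowest in artery (log2 -2.64 against capillary, adjusted p = 7.66e-12) but gave no call between vein and capillary (log2 -0.45, adjusted p = 0.121).

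Irf1, a transcription factor induced directly through the GAS, had 153.2, 269.2 and 326.5 CPM in artery-like, 138.4, 257.1 and 339 in capillary-like, 235.9, 282.6 and 336.3 in vein-like and 25.17, 0 and 84.62 in lymphatic-like cells. Vein was clearly above the others in the untreated library and close to them in the running library. It was called higher in vein than in capillary (log2 0.48 ± 0.11, adjusted p = 0.00138; without the untreated library 0.24, adjusted p = 0.0857), while artery and capillary gave no call (log2 0.08 ± 0.11, adjusted p = 0.679). Irf1 was also called higher in vein than in artery (log2 0.40, adjusted p = 0.00855), but without the artery-like cluster led in part by Bst2 the value was -0.05, and without the untreated library 0.19, with no call in either. Iigp1, a GTPase that attacks the vacuoles of intracellular parasites, had 239.6, 303.3 and 440.8 CPM in artery-like, 236.1, 338.2 and 506.6 in capillary-like, 257.4, 387 and 721.7 in vein-like and 37.75, 0 and 30.77 in lymphatic-like cells. Vein was the highest class in each library. Vein exceeded capillary (log2 0.46 ± 0.10, adjusted p = 0.000483) and artery (log2 0.53, adjusted p = 8.57e-05). Neither call held without the running library (log2 0.33, adjusted p = 0.104, and 0.36, adjusted p = 0.0637), and artery and capillary gave no call (log2 -0.07 ± 0.09, adjusted p = 0.673).

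Igtp and Irgm1 act on the same family of GTPases. Igtp, a regulator within it, had 43.53, 67.59 and 78.28 CPM in artery-like, 29.67, 43.55 and 57.99 in capillary-like, 26.44, 61.2 and 77.08 in vein-like and 62.92, 48.27 and 15.39 in lymphatic-like cells. Artery exceeded capillary within each library (log2 0.58, adjusted p = 0.00104), though the ranges overlapped. Irgm1, of the same regulator group, had 54.68, 43.84 and 35.97 CPM in artery-like, 45.55, 43.23 and 34.08 in capillary-like, 44.53, 21.6 and 22.42 in vein-like and 0, 48.27 and 7.693 in lymphatic-like cells. The Irgm1 ranges overlapped and none of the blood vessel comparisons was called, the artery to capillary ratio being log2 0.16 with adjusted p = 0.494.

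The guanylate-binding proteins coat and disrupt pathogen membranes. Gbp2 was at 109.7, 144.3 and 136.8 CPM in artery-like, 89.6, 105.8 and 100.7 in capillary-like, 69.58, 108 and 120.5 in vein-like and 37.75, 48.27 and 23.08 in lymphatic-like cells. Every artery value was above every capillary value, and the vein range overlapped both (artery to capillary log2 0.43, adjusted p = 0.00317). That call was lost without the sedentary (adjusted p = 0.0702) or the running library (adjusted p = 0.0618). Gbp3 was at 119.4, 123 and 112.8 in artery-like, 79.11, 102.7 and 90.27 in capillary-like, 59.84, 86.4 and 79.88 in vein-like and 25.17, 0 and 15.39 in lymphatic-like cells (artery to capillary log2 0.44, adjusted p = 0.00243). Gbp7 was at 233.5, 230.8 and 246.8 in artery-like, 203.2, 223.8 and 221.5 in capillary-like, 125.2, 144 and 182.2 in vein-like and 50.34, 96.53 and 107.7 in lymphatic-like cells. For Gbp7, artery and capillary differed by log2 0.17 with no call (adjusted p = 0.227), and vein lay below both classes in each library (log2 -0.38 against capillary, adjusted p = 0.0122; not called without the untreated library, adjusted p = 0.18, or without the sedentary one, adjusted p = 0.119). The GTPase families hold near-identical copies, so the treatment of reads shared among relatives is uncertain here as well.

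The immunoproteasome subunits replace the catalytic subunits of the proteasome and shape the peptides shown on class I molecules. Psmb8 was at 396.4, 436.6 and 468.3 CPM in artery-like, 190.6, 250.8 and 249 in capillary-like, 157.9, 239.4 and 249.4 in vein-like and 75.51, 96.53 and 30.77 in lymphatic-like cells. The artery values were all above the others, and capillary and vein overlapped (artery to capillary log2 0.96 ± 0.09, adjusted p = 2.39e-10). Psmb9 was at 154.7, 157.7 and 186.2 in artery-like, 95.89, 108.1 and 117.5 in capillary-like, 61.23, 90 and 123.3 in vein-like and 12.58, 0 and 23.08 in lymphatic-like cells (artery to capillary log2 0.68, adjusted p = 8.51e-06). Psmb10 was at 178.4, 233.2 and 253.9 in artery-like, 115.7, 158 and 156 in capillary-like, 75.15, 104.4 and 96.7 in vein-like and 25.17, 0 and 38.46 in lymphatic-like cells. Psmb10 alone of the 3 subunits separated all 3 blood vessel classes without overlap, with artery above capillary (log2 0.67, adjusted p = 9.16e-07) and vein below it (log2 -0.47, adjusted p = 0.00335; 0.0694 without the running library). All 3 subunits were higher in artery than in vein under all 16 alternative settings.

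Lymphatic-like cells had lower levels of most members than capillary-like cells, but they were few, with 80 cells and 230172 UMIs in all. Of the 35 members, 23 were lower (14 type I-like and 9 gamma-like), with 7.99% of all 12235 genes lower and 4.7% higher. None was called higher by edgeR or by DESeq2, and none was higher at an unadjusted p under 0.05. The median log2 ratio was -1.42 for type I-like and -2.31 for gamma-like members, or -1.31 and -2.27 with members at 0 set at their bound, beside -0.39 for all genes. With the interferon genes kept among the clustering genes the medians were -0.72 and -1.03, but 143 of the 224 cells then named lymphatic-like lay in a second cluster led by Ift122, Apln and Ccnd1, with a lymphatic marker score of 0.98 against 8.06 for the other 81 cells. Oas2 and Cxcl10 had 0 UMIs in all 3 lymphatic sums, where 3 UMIs would have been 37.8, 144.8 and 23.1 CPM, so no fold is given for them. Without the untreated or without the running library, 15 members were called in each case.

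The calls for lymphatic-like cells rest on small counts. A type I-like member had a median of 8.5 UMIs over the 3 lymphatic sums and a gamma-like one a median of 7, and 6 members had at most 3 UMIs. Iigp1 had 7 UMIs where its capillary level would have given 91.6 (log2 -3.81 ± 0.38, adjusted p = 2.83e-21). Rsad2 had 8 against 49.9 (log2 -2.79, adjusted p = 6.48e-11), and Psmb8 had 12 against 52.7 (log2 -2.25, adjusted p = 1.16e-08). These fell among the 10 members that were lower under all 15 alternative settings, with Irf1, Irf7, Ly6e, Oasl2, Parp14, Psmb9 and Psmb10. Oasl2 rests on a single UMI, a ratio to the capillary level of 0.0603 with a counting interval from 0.00153 to 0.336. Ifitm3 and Ifitm2 gave no call, with log2 -0.10 and -0.24. The Ifitm3 value turns sign with the scaling, its CPM being 1.10 times the capillary one.

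The pathway genes around the list were read from lists of ligands, receptors, signal transducers, inhibitors and other induced genes. All 8 ligand genes of the list, among them Ifnb1 and Ifng, had 0 UMIs in each of the 12 class sums, where 3 UMIs would have been 0.897 to 145 CPM. Of 5 receptor chains tested, 2 were higher in artery than in capillary and 1 was lower, and 3 were lower in vein than in capillary. Over all genes, 9.85% were higher and 8.61% lower in artery than in capillary, and 9.02% were lower in vein than in capillary. The widest difference was that of Il10rb, a chain of the interferon lambda receptor, at 246.1, 253.3 and 245.4 CPM in artery-like, 148.3, 183.7 and 163.8 in capillary-like and 75.84, 66.6 and 60.26 in vein-like cells, without overlap (vein to artery log2 -1.70, adjusted p = 2.56e-13). Of 14 signal transducers tested, 2 were higher in artery than in capillary and 2 lower, beside those 9.85% and 8.61% of all genes. Irf8, a factor best known in myeloid cells, was among the lower ones with log2 -2.02 in artery against capillary (adjusted p = 4.08e-08). Socs3, an inhibitor of cytokine signalling, was at 1046, 833.4 and 955.7 CPM in vein-like, 454.6, 422.4 and 632.8 in capillary-like and 347.9, 286.2 and 372.4 in artery-like cells, so that vein exceeded both in every library (log2 1.09 against capillary, adjusted p = 4.7e-12).

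Of 31 other induced genes tested, 14 were higher in artery than in capillary and 1, Cxcl9, was lower, with a median log2 ratio of 0.30. The shares of all genes were 9.85% higher and 8.61% lower. Between vein and artery, 15 were lower in vein and 1 higher, beside 11.5% and 12.6% of all genes. Against capillary-like cells, 11 were lower in lymphatic-like cells and 1 was higher, beside 7.99% and 4.7% of all genes. The higher gene was Ifi27l2a, a relative of Ifi27, at 1057, 627.5 and 884.7 CPM in lymphatic-like, 213.7, 176.4 and 118.4 in capillary-like, 682.8, 518.8 and 432.3 in artery-like and 79.32, 144 and 93.89 in vein-like cells. Each lymphatic value of Ifi27l2a was above the artery value of the same library, and each artery value above all capillary ones (lymphatic to capillary log2 2.35, adjusted p = 2.46e-43). Like Ifi27, it had its highest level of the 4 classes in lymphatic-like cells.

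Within a class, the type I-like UMIs were unevenly spread over cells. Each cell was thinned to 1000 UMIs, which left out shallower cells (484, 1421 and 712 capillary-like, 241, 316 and 120 artery-like, and 30, 8 and 11 vein-like). For the 19 type I-like members without the 5 of high count, the variance over cells was 3.45, 2.79 and 2.75 times the mean in artery-like cells, 3.15, 2.69 and 2.01 times in capillary-like cells and 1.66, 1.73 and 1.5 times in vein-like cells, where independent counts would give about 1. For the 11 gamma-like members the ratio was between 1.35 and 1.75 in all 3 classes and libraries. The means of the lists differed too, at 2.65, 2.84 and 2.62 UMIs per cell for the type I-like and 1.69, 2.03 and 2.30 for the gamma-like members in artery-like cells. Type I-like means were 1.86, 2.14 and 1.94 in capillary-like and 0.97, 1.31 and 1.34 in vein-like cells. The variance ratio and the share of cells past a fixed count can both rise with the mean. The part of the mean in these class differences was not tested. Cells with at least 8 such type I-like UMIs made up 5.73%, 7.40% and 5.55% of artery-like, 2.54%, 3.28% and 1.91% of capillary-like and 0.203%, 0.515% and 0% of vein-like cells. The count of 0 among 199 running vein-like cells allows a share of up to 1.51% by the floor of 3 counts, and its exact 95% interval reaches 1.84%. Those few artery-like cells carried 24.7%, 26.6% and 22.5% of the class's UMIs of the 19 genes. The plot of spread over cells sets both lists side by side.

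**Figure D3:**
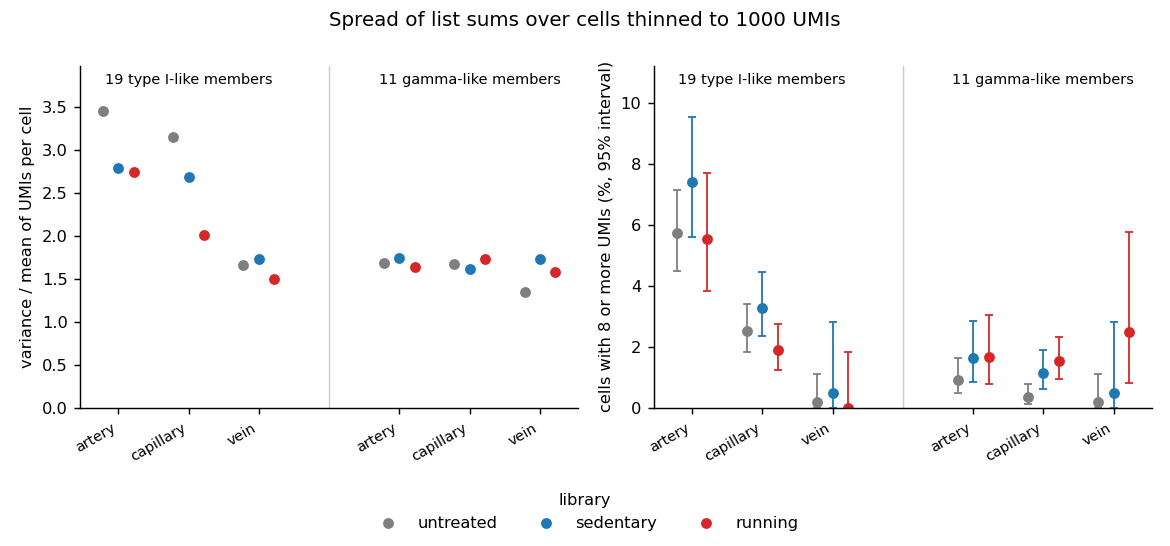
Left, variance over cells divided by the mean, and right, share of cells with at least 8 UMIs (with exact 95% binomial intervals), for the 19 type I-like and 11 gamma-like members in cells thinned to 1000 UMIs, with 1 point per library. For the type I-like members artery-like cells stand highest on both, with 5.55% to 7.40% of cells at 8 UMIs or more, and vein-like cells lowest. The mean UMIs per cell follow the same order of classes, and level and spread are not separated here.

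The members that varied together from cell to cell were read by splitting the thinned capillary-like and artery-like cells on whether they held at least 5 UMIs of those 19 type I-like members, the gene in question never counting toward its own split. With no gene set aside, 878 cells stood against 6010, and for single members the first set held 623 to 878 cells. For each gene the ratio of its level in the first to that in the second set was taken. The range of other genes came from 7318 genes outside those 19 with at least 100 UMIs in these cells. Over them this ratio had a median of 0.978, with 95% of genes between 0.6 and 1.51. It was above 1.51 for 27 of the 35 members, 19 type I-like and 8 gamma-like. The ratio was 7.73 for Ifit3, 6.73 for Ifit1, 6.05 for Ifit2, 5.09 for Usp18, 4.21 for Isg15 and 3.72 for Rsad2. Gamma-like members took part too, with 3.73 for Igtp and 2.95 for Irgm1. Cxcl10, counted among those 8, stood at 4.18, with values in single libraries from 1.76 to 22.9. Its UMIs were under that minimum of 100, at means of 0.0125 and 0.003 per cell in the first and the second set. Irf1 stood at 1.18, Ifitm2 at 1.03 and Ifi27 at 0.747, inside the range of other genes. The sets were not matched for class, and no test is given.

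**Figure D4:**
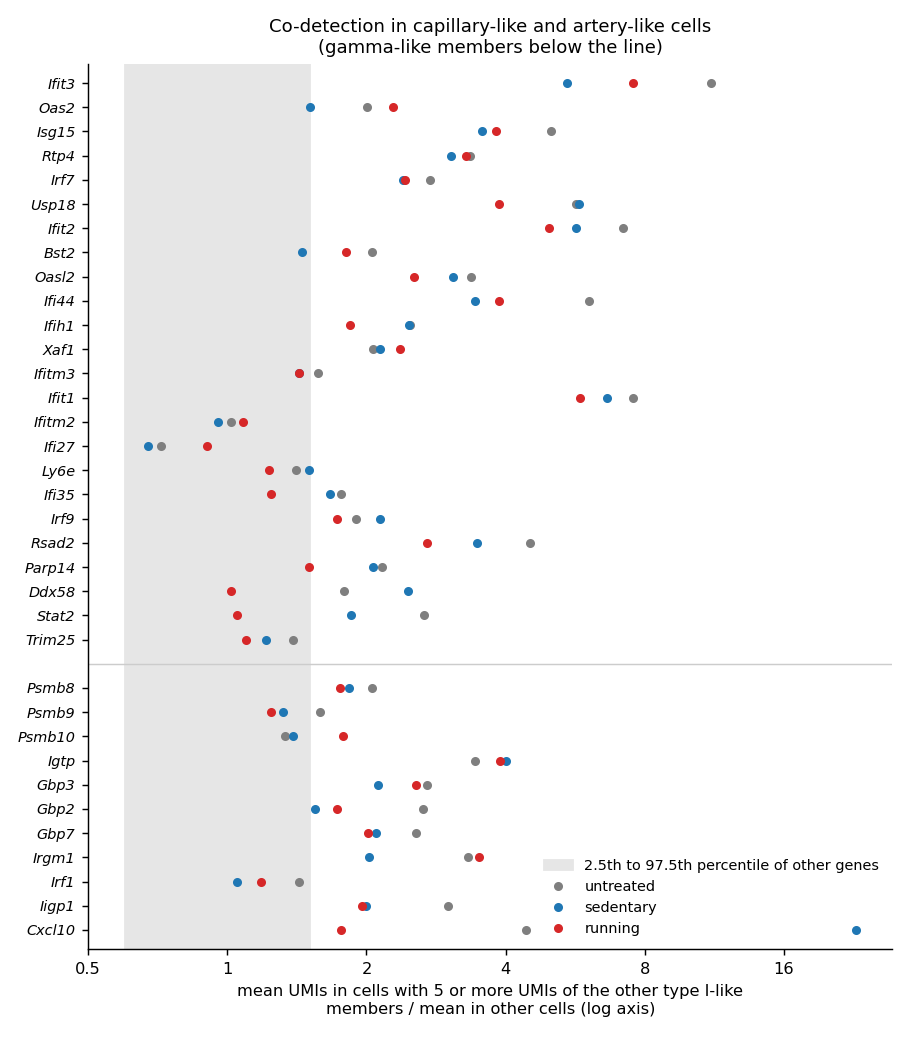
Ratio of each member's level in cells with at least 5 UMIs of the other members among those 19 type I-like genes to that in the remaining capillary-like and artery-like cells, on a log axis, with 1 point per library and the range of 95% of other genes shaded. The Ifit genes and Usp18 lie far to the right (7.73 for Ifit3 over the libraries), and Ifi27 (0.747) and Ifitm2 (1.03) lie within the shaded range.

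The comparison of running with sedentary mice rests on 1 library each, so no test is possible, and intervals cover counting error only. Running and any other difference between these libraries cannot be told apart. In capillary-like cells, 1 of 35 members was at least 1.5-fold higher in running (Cxcl10) and 2 were at least 1.5-fold lower (Ifit3 and Oas2), beside 4.76% of all genes higher and 4.87% lower. In artery-like cells 0 of 34 members passed the fold, beside 5.34% and 5.33% of all genes. In vein-like cells 2 of 32 were higher (Iigp1 and Cxcl10) and 2 lower (Ifit3 and Ifih1), beside 7.15% and 6.88%. Members past the fold were thus no more frequent than such genes overall in any of the 3 classes. The medians of the type I-like members were log2 -0.19, -0.07 and 0.03 in capillary-like, artery-like and vein-like cells, those of the gamma-like members -0.01, 0.11 and 0.29, and those of all genes -0.01, 0.01 and 0.00.

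Single members differed beyond counting error. Iigp1 was higher in running than in sedentary in capillary-like cells (log2 0.58, interval 0.47 to 0.70), artery-like cells (0.54, 0.37 to 0.71) and vein-like cells (0.90, 0.67 to 1.14), on 215 to 1695 UMIs per sum. Its running to sedentary value was above 0 in 8 of 8 clusters, with the interval above 0 in 6. Irf1 was higher by log2 0.40 (0.27 to 0.53) in capillary-like and 0.28 (0.09 to 0.47) in artery-like cells, and the interval in vein-like cells included 0. Within the 4 capillary-like clusters, however, Irf1 stood at 0.02, 0.34, -0.15 and -0.08, each below the pooled value, and it was above 0 in 5 of 8 clusters. Running capillary-like cells lay mostly in one of these clusters (1081 of 2129) and many sedentary ones in another (1310 of 2639), and the part of this in the pooled Irf1 value was not tested. The CPM ran in the order untreated, sedentary, running in all 3 blood vessel classes for 5 of 32 members, Iigp1, Irf1, Igtp, Psmb9 and Ifi27, and for 3.6% of 7800 genes. Bst2 ran the other way, with the running level below the sedentary one by log2 -0.43 (-0.52 to -0.34) in capillary-like and -0.38 (-0.49 to -0.28) in artery-like cells, and it was below 0 in 7 of 8 clusters. Ifit3 was lower by log2 -0.63 (-0.92 to -0.35) in capillary-like cells. In capillary-like cells, 13 of 24 type I-like intervals lay below 0 and 1 above, and 3 of 11 gamma-like intervals lay above 0 and none below. Over all genes 8.34% of intervals lay above 0 and 10.6% below, and the width of an interval depends on the UMIs of the gene. The gamma-like median was above 0 in 8 of 8 clusters, from 0.005, beside 0.009 for all genes of that cluster, to 0.604, which rests on 7 members in 107 sedentary and 117 running cells. The type I-like median was below 0 in 5 of 8 clusters.

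**Figure D5:**
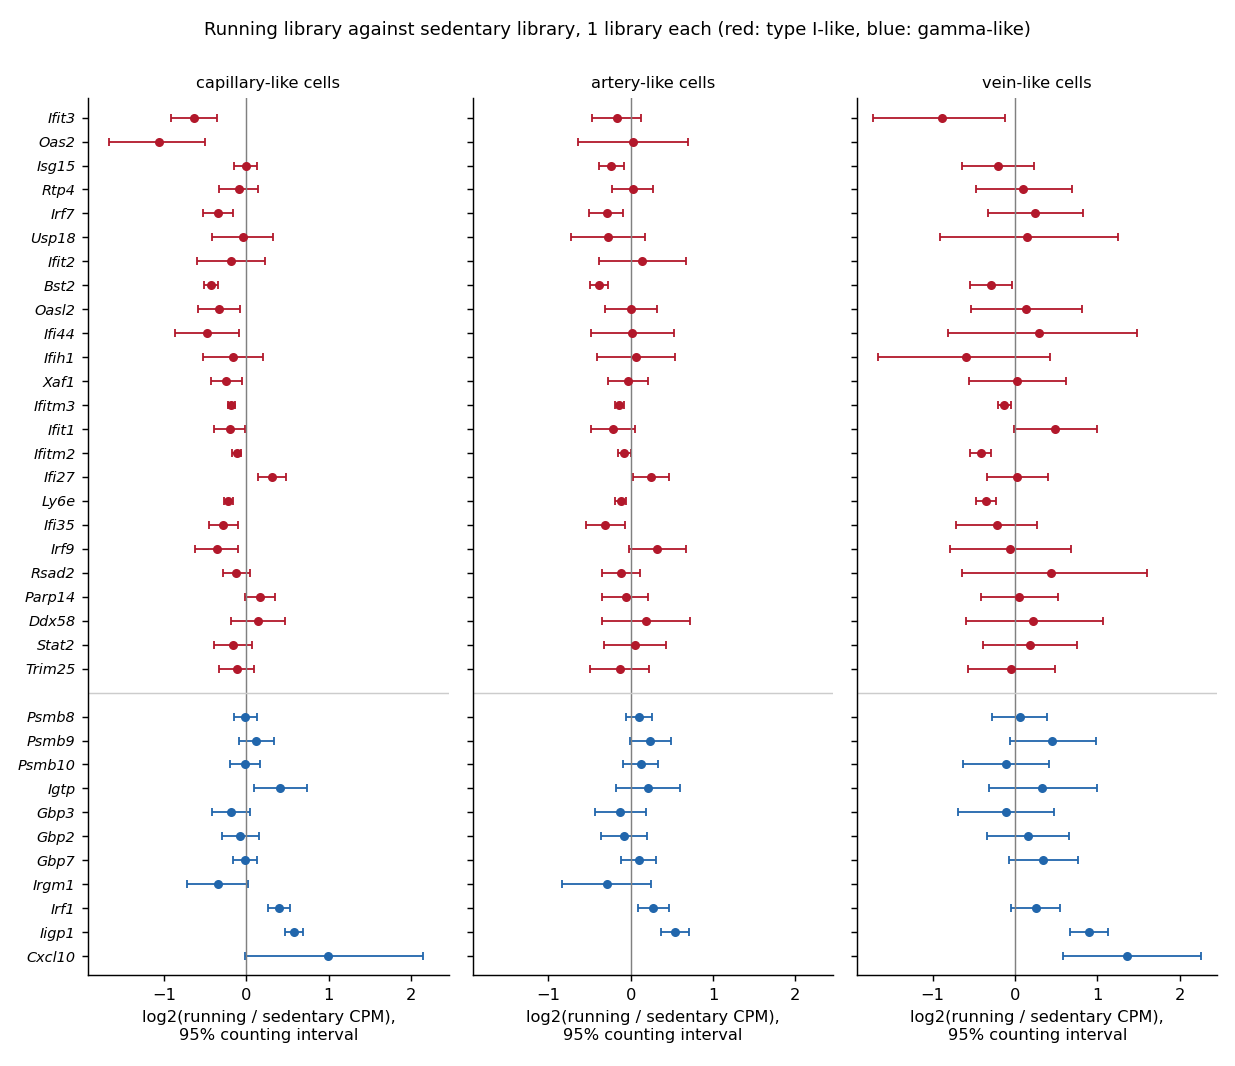
Running to sedentary log2 ratio of each member in capillary-like, artery-like and vein-like cells, with exact 95% Poisson intervals (counting error only). Iigp1 lies above 0 in all 3 classes (0.58, 0.54 and 0.90), and Bst2 below 0.

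The untreated library differed more. Against sedentary, in capillary-like cells, 2 members were at least 1.5-fold higher (Trim25 and Cxcl10) and 8 at least 1.5-fold lower (Ifit3, Irf7, Bst2, Ifitm2, Ifi35, Oas2, Ly6e and Irf1), beside 7.95% and 14.7% of all genes. Trim25 was 4.7-fold higher (log2 2.23, interval 2.07 to 2.40), and by log2 2.27 in artery-like and 2.13 in vein-like cells. Rsad2 was higher as well, by log2 0.51 (0.36 to 0.66) in capillary-like and 0.61 (0.43 to 0.79) in artery-like cells. Most other members were lower, with medians of -0.39 for type I-like and -0.38 for gamma-like members beside -0.12 for all genes, a shift of all genes that scaling by TMM brings to -0.01. Under TMM the member medians were -0.27 and -0.26, with 3 members higher and 5 lower. The shares of all genes given above belong to scaling by total UMIs. They are not given here under TMM, so these counts have no share to stand beside. Of the untreated capillary-like cells, 1305 of 2137 lay in 1 cluster that held only 107 sedentary and 117 running cells and had Trim25 among its leading genes. Both comparisons use the sedentary library, so they are not independent of each other.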

How the data were processed

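Droplet single-cell libraries (10x 3′ chemistry) were made from sorted endothelial cells, per the labels' protocols. The authors deposited UMI counts per gene and cell, made with Cell Ranger 2.0.2 on GRCm38.p5, per the submitters' processing notes. The deposited counts were used as they are. Barcodes under 300 genes or over 10% mitochondrial UMIs were left out. Scanpy 1.11.5 gave clusters from 2000 variable genes, 30 components and 15 neighbours at resolution 1.0, with members and pathway genes left out. Clusters were named from listed markers, with limits on the marker scores set after the data were seen. Doublet scoring marked 0 cells and so did not work as a filter.

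UMIs were summed per class and library and tested with edgeR 4.0.16 (quasi-likelihood, TMM, library as a block, at least 30 UMIs, Benjamini-Hochberg at 0.05), separately for 3 blood vessel classes (9 sums) and 4 classes (12 sums). DESeq2 1.42.0 was an alternative. The block pairs classes of the same library, which come from the same sort. Libraries were compared by CPM ratios with a prior count of 0.5 and exact 95% Poisson intervals, without a test, on members with at least 30 UMIs. Intervals and floors (3 UMIs) cover counting error only. Members were described in full where called or past 1.5-fold, up to 10 type I-like by total UMIs and all gamma-like. The test script was checked on simulated data. Members, lists and comparisons were chosen with earlier results of these data known. Alternatives covered clustering, filters, depth, scaling, test, block, single libraries, doublets and classes from markers of single cells. The last, the doublet setting and the setting without one artery-like cluster were chosen after seeing the data. One pathway gene is not reported here. Promoters come from RefSeq (GRCm38.p6).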

Additional observations from a re-analysis of the deposited data

Results flagged for a closer look

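Clusters that entered no class comparison also held UMIs of the members, above what a count of 0 allows, and are given here as values over the libraries. The unnamed cluster led by Penk and Itm2a had type I-like members at 5890 CPM and gamma-like members at 1590 CPM. The unnamed cluster led by muscle fibre genes had 10900 and 1570 CPM. The cluster with mural and fibroblast genes had 4190 and 904 CPM, and the cluster with erythrocyte genes 3080 and 451 CPM. The share of these UMIs that came from free RNA was not tested.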

How the results depend on the processing

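Members called between artery-like and capillary-like cells (26) came to 15 with cells thinned to 1000 UMIs and to 6 with no replicate block. Members called between vein-like and capillary-like cells (16) came to 7 with no replicate block, and between lymphatic-like and capillary-like cells (23) to 15 without the untreated and 15 without the running library. The cause was not tested, although fewer sums entered the last fits. The share of all genes called in these settings is not given, so the losses cannot be read as particular to the members. Leaving out 1 library at a time gave 18 to 22, 12 to 13, 22 to 25 and 15 to 21 calls for artery to capillary, vein to capillary, vein to artery and lymphatic to capillary. All remaining settings gave 18 to 26, 12 to 18, 20 to 25 and 17 to 24 calls. Irf1 turned to log2 -0.05 between vein and artery without the artery-like cluster led in part by Bst2. With DESeq2 size factors the lymphatic medians were -1.30 and -2.19. Running to sedentary, 1 member in vein-like cells was past 1.5-fold when at least 100 UMIs were asked for, since fewer genes were then measured. The small number of lymphatic-like cells (80) limits that class, and 1 library per group limits every comparison between libraries.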

Other observations

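The genes outside the type I-like members with the highest level in cells holding at least 5 UMIs of the 19 type I-like members left without Ifitm3, Ly6e, Ifitm2, Bst2 and Trim25, relative to the other thinned capillary-like and artery-like cells, were mostly other interferon targets. Only genes with at least 100 UMIs in these cells were ranked, which left out Cxcl10. Of the 25 with the highest ratio, 3 were gamma-like members (Igtp, Irgm1 and Gbp3). A further 13 were pathway genes of the lists, led by Ifit3b at 9.66, Cmpk2 at 4.13 and Ifi47 at 3.57. The remaining 9, chosen by their values, were Trim30d, Slfn2, Isg20, Ddx60, Gm45684, Rnf213, Cd274, Parp12 and Clmn. Trim30d stood at 3.53, Slfn2 at 3.49 and Cd274, which encodes the immune checkpoint ligand PD-L1, at 2.39, against a median of 0.978 over the other genes. Ifit3b is a near-identical copy of Ifit3, so its value is uncertain.

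Rsad2, low in vein-like cells, was not low in the unnamed cluster led by Penk and Itm2a, where it stood at 384.6, 280.8 and 201.6 CPM in the untreated, sedentary and running libraries on 57, 30 and 24 UMIs. A cluster led by the same genes was named vein-like in some alternative settings. These kept the interferon genes for clustering, asked for more detected genes per cell or left out the highest doublet scores. Its part in the range of the Rsad2 vein ratios was not tested.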
